A study of Mus musculus with 69 samples.

Results

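The 10 genes described here are the stress-response transcription factor NRF2 (Nfe2l2), its inhibitor Keap1, 6 genes that NRF2 is known to activate (Nqo1, Hmox1, Gclc, Gclm, Txnrd1 and Srxn1) and the metallothioneins Mt1 and Mt2. They were chosen by symbol, and all 10 were found among the 24411 genes of the count matrix and passed the filter of at least 2 counts in total, as did 21175 genes. The study tagged newly made RNA in chosen cells of the mouse kidney. A Cre driver switched on UPRT, an enzyme of Toxoplasma gondii placed in the Rosa26 locus, which lets a cell build 4-thiouracil (4-TU) into its RNA, and the tagged RNA was pulled down. The 69 libraries comprised 48 pulldowns and 21 libraries of untagged RNA from whole control kidneys.

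All mice carried UPRTf/+ and a Cre driver, controls included, and received 4-TU at 430 mg/kg 4 h before the kidneys were taken. Hoxb7Cre;UPRTf/+ tags the collecting duct. Atp6b1v1Cre;UPRTf/+ (spelled Atp6v1b1Cre in the study's methods) tags intercalated cells and cells that carry marks of both principal and intercalated cells, and a reporter also showed scattered interstitial cells with this driver. The states compared were uninjured Control mice, iAKI (ischemic injury, with both renal pedicles clamped for 10 min and the kidney examined after 24 h) and vAKI (volume depletion, with 72 h without water and food). Injured mice were 5.5 months old, and controls were 5.5 or 3 months old. The males of 5.5 months, which carry the main comparisons, comprised 4 Control, 4 iAKI and 3 vAKI pulldowns with Hoxb7Cre and 4 Control, 3 iAKI and 4 vAKI pulldowns with Atp6b1v1Cre. Females of that age comprised 4 Control, 3 iAKI and 4 vAKI pulldowns with Hoxb7Cre and 4 Control, 3 iAKI and 3 vAKI with Atp6b1v1Cre. The study's supplement counts as many mice per state as there are male pulldowns here, so each of these is read as 1 mouse. It also counts 21 control mice of both sexes, which equals the number of total kidney libraries and that of the control pulldowns, so a total library and a pulldown may share a mouse. For each driver, sex, age and library series there are as many total libraries as control pulldowns, but the labels name no pairs. For injured females p-values measure the spread between libraries.

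NRF2 is a transcription factor that KEAP1 holds in the cytoplasm and passes to the proteasome. Oxidants and electrophiles modify KEAP1, NRF2 then reaches the nucleus, pairs with a small MAF protein and binds the antioxidant response element (ARE) of its targets, where BACH1 competes with it. The targets make glutathione (Gclc and Gclm, the subunits of its rate-limiting enzyme), recycle thioredoxin and peroxiredoxins (Txnrd1 and Srxn1), reduce quinones (Nqo1) and break down heme (Hmox1). Metallothioneins are small cysteine-rich proteins that bind zinc and copper. They are induced by zinc through MTF1 and the metal response element (MRE), and also by glucocorticoids and oxidants.

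The promoters of the metallothioneins and of Srxn1 and Txnrd1 are shown because these 4 genes had the largest rises that passed the test in the comparison of vAKI with Control in Hoxb7Cre males. RefSeq promoter sequences (GRCm38.p6, from 250 bases before to 50 bases after a start site) were matched for 8 of the 10 genes. The ARE core TGACNNNGC and the MRE cores TGCACNC and TGCGCNC were searched on both strands. Capitals mark MRE core matches in Mt1 (chr8:94178839-94179138, plus strand) and Mt2 (chr8:94172368-94172667, plus strand), and ARE core matches in Srxn1 (chr2:152105274-152105573, plus strand) and Txnrd1 (chr10:82858956-82859255, plus strand, which is the only promoter with a match among the 3 listed for this gene).
Mt1: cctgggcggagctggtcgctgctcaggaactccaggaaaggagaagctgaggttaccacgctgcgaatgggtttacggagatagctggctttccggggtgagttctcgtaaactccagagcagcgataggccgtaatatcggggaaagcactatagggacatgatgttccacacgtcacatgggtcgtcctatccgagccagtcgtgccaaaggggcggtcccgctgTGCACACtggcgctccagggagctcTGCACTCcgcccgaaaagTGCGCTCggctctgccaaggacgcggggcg
Mt2: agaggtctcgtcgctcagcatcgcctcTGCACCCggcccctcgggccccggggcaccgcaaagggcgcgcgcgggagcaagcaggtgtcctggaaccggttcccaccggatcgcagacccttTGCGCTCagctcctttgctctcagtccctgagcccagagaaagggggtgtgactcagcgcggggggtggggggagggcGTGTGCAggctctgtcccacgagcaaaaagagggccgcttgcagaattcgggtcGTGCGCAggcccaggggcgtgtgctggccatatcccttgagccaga
Srxn1: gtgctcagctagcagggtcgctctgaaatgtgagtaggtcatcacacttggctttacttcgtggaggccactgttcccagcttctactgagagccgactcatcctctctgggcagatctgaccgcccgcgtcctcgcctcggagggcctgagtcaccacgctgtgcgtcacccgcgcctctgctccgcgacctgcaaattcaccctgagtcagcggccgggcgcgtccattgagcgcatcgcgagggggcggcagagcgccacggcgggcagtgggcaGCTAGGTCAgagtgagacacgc
Txnrd1: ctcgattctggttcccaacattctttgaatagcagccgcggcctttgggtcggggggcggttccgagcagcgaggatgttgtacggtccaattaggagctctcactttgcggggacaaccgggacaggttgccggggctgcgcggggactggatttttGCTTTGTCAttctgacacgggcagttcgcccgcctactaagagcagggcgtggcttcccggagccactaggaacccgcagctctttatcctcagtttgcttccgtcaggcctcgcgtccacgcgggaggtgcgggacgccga

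Mt1 held 3 MRE core matches and Mt2 held 4, while 1.97% of all 32841 promoters held 3 or more. Gclm also held 3. At least 1 MRE core was present in 25.7% of promoters and at least 1 ARE core in 12.4%. The ARE core was matched once in Nfe2l2, Srxn1, Gclm, Mt2 and 1 Txnrd1 promoter, and the Mt2 match (TGACTCAGC) lies 79 bases before the start site. The Txnrd1 match lies 92 bases before its start site, and the Srxn1 match begins at base 29 after its own. The ARE core was not found in the 300-base windows of Nqo1 and Keap1. Sequences that differ from the core at a fixed base were not searched, such as tgagtcagc in the printed Srxn1 window. A match is a description of sequence and not a binding site.

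In the GRCm38 annotation Mt2 (chr8:94172664-94173568) and Mt1 (chr8:94179082-94180327) lie next to each other on the plus strand. Hmox1 (chr8:75093621-75100589) and Nqo1 (chr8:107388225-107403206) are on the same chromosome. Nfe2l2 (chr2:75675513-75704641), Srxn1 (chr2:152105516-152111376), Gclm (chr3:122245557-122270732), Keap1 (chr9:21229730-21239361), Gclc (chr9:77754535-77794485) and Txnrd1 (chr10:82833951-82897712) lie elsewhere. All 10 are protein coding. Mt1 and Mt2 are similar in coding sequence, and the counting used default settings of HTSeq, which leave out reads that align equally well to both, so each value rests on reads that fit 1 of the pair.

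Each library held 12618062 to 30305464 counts in genes (median 20868430). Library numbers in the labels fall into 3 series, here called A, B and C. All iAKI and vAKI libraries with Hoxb7Cre are in series A, while their male controls are split between A (replicates 2 and 3) and B (replicates 4 and 5). Against total kidney, Hoxb7Cre pulldowns were higher in 6 of 7 principal cell markers and Atp6b1v1Cre pulldowns in 5 of 7 intercalated cell markers, and proximal tubule markers were lower in 8 of 9 and 9 of 9. Proximal tubule RNA was not at 0: its 9 markers summed to 3453 to 5338 CPM (counts scaled to library size, below) in the male Hoxb7Cre controls. CPM are counts scaled to the size of each library with TMM factors over all 69 libraries, and SDs and SEs are given after ±. In bulk RNA, fewer cells of a type and less RNA per cell cannot be told apart.

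The first question was which of these genes the tagged cells of an uninjured kidney make, relative to the whole organ. In both kinds of pulldown Nfe2l2, Gclc, Srxn1 and Txnrd1 were above total kidney RNA and Gclm, Mt1, Mt2 and Keap1 were below it. Of the 10 genes, 9 passed the test with Hoxb7Cre (66.6% of all genes did) and 8 with Atp6b1v1Cre (63.8% of all genes). Passing means a Benjamini-Hochberg adjusted p under 0.05 over all genes in edgeR's quasi-likelihood test, and each change is given as a log2 difference ± SE. Here and below, all genes are the 21175 with at least 2 counts in total, many of them with far fewer counts than the members. The share called among genes of a level like that of the members was not computed. A pulldown holds RNA made within 4 h and total RNA holds RNA of any age, so the kind of cell and the age of the RNA cannot be told apart here. The fit holds sex as a covariate and treats pulldown and total libraries as independent although they may share mice. With driver, sex, age and series of the mouse as 1 covariate, an alternative chosen after seeing the data, the calls of the 10 genes were as reported with both drivers.

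Nfe2l2 averaged 253 ± 26.3 CPM in 10 Hoxb7Cre controls, 255 ± 49.4 CPM in 11 Atp6b1v1Cre controls and 151 ± 26.9 CPM in 21 total kidney libraries (± SD). It was higher in the pulldowns by 0.76 ± 0.08 (adjusted p = 2.67e-11) and 0.82 ± 0.08 (adjusted p = 1.50e-12). All Hoxb7Cre controls (215 to 292 CPM) lay above all total kidney libraries (112 to 198 CPM), and the Atp6b1v1Cre controls (194 to 357 CPM) overlapped them at the edge. Keap1, the inhibitor, was lower in both, with -0.22 ± 0.06, adjusted p = 0.00252 for Hoxb7Cre and -0.23 ± 0.06, adjusted p = 0.00107 for Atp6b1v1Cre. In females alone Keap1 did not pass with either driver (-0.16, adjusted p = 0.157 and -0.15, adjusted p = 0.259).

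The subunits of glutamate-cysteine ligase parted. Gclc, the catalytic subunit, averaged 1079 ± 465.5 CPM with Hoxb7Cre, 1016 ± 277 CPM with Atp6b1v1Cre and 665 ± 198 CPM in total kidney. It was higher by 0.61 ± 0.11 (adjusted p = 3.82e-06) and 0.72 ± 0.10 (adjusted p = 5.08e-08). Gclm, the modifier subunit, averaged 164 ± 20.7 CPM with Hoxb7Cre, 190.3 ± 34.7 CPM with Atp6b1v1Cre and 392 ± 74.2 CPM in total kidney. Its differences were -1.16 ± 0.09 (adjusted p = 6.78e-16) and -1.02 ± 0.08 (adjusted p = 9.50e-15). Gclm did not overlap, with 113 to 186 CPM and 148 to 268 CPM in the pulldowns and 278 to 501 CPM in total kidney.

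Srxn1, which repairs over-oxidized peroxiredoxins, was higher by 0.46 ± 0.11 with Hoxb7Cre and 0.48 ± 0.11 with Atp6b1v1Cre (adjusted p = 3.07e-04 and 1.16e-04). Txnrd1, the cytosolic thioredoxin reductase, was higher by 0.27 ± 0.10 and 0.44 ± 0.09 (adjusted p = 0.0142 and 6.56e-05). In Hoxb7Cre males alone the difference of Txnrd1 was 0.03, adjusted p = 0.907, and that of Srxn1 was 0.22, adjusted p = 0.173, and in Atp6b1v1Cre females alone Srxn1 gave 0.34, adjusted p = 0.128. The quinone reductase Nqo1 was lower with Hoxb7Cre (-0.41 ± 0.13, adjusted p = 0.00504) and gave -0.07 ± 0.12, adjusted p = 0.66 with Atp6b1v1Cre. In females alone the Hoxb7Cre difference of Nqo1 was -0.11, adjusted p = 0.434.

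Mt1 reached 498 ± 207 CPM in total kidney against 222 ± 120.0 CPM with Hoxb7Cre and 231 ± 96.5 CPM with Atp6b1v1Cre, with differences of -1.27 ± 0.20 (adjusted p = 2.76e-07) and -0.92 ± 0.19 (adjusted p = 3.11e-05). Mt2 was lower too, by differences of -0.96 ± 0.26 (adjusted p = 0.00138) and -0.61 ± 0.25 (adjusted p = 0.031). With Atp6b1v1Cre Mt2 passed in neither sex alone (-0.57, adjusted p = 0.106 in males and -0.74, adjusted p = 0.112 in females), and with Hoxb7Cre it did not pass in females (-0.72, adjusted p = 0.0604). In total kidney Mt1 ranged from 414 to 931 CPM in 10 females and from 192 to 616 CPM in 11 males. Hmox1 did not pass with either driver (-0.40 ± 0.57, adjusted p = 0.553 and 0.01 ± 0.54, adjusted p = 1).

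Between the drivers none of the 10 genes passed (9.93% of all genes did), with 1 of them, Nqo1, at an unadjusted p of 0.0256 (log2 difference 0.34 ± 0.15) and none by DESeq2. Nqo1 was higher with Atp6b1v1Cre in males alone (0.91, adjusted p = 0.00159) and with library series as a covariate (0.37, adjusted p = 0.0493). Control females of 5.5 months did not show this rise. Their Nqo1 averaged 119.4 CPM with Hoxb7Cre (100.6 to 141.6 CPM) and 108.04 CPM with Atp6b1v1Cre (87.2 to 136.9 CPM). In control males of that age the averages were 82.7 and 151.3 CPM. The other 9 members lay between -0.012 ± 0.07 (Keap1) and 0.41 ± 0.64 (Hmox1). Levels of different genes are set side by side per kilobase of exon. Exon length here joins the exons of all annotated transcripts of a gene, which can exceed the length of the RNA that is made. For Mt1 it is 1246 bases and spans the whole gene, so its value per kilobase may be too low and its place in the order is uncertain. Scaling by length leaves in place that 4-TU capture may favour RNA rich in uracil and RNA that is made fast, so the order below describes captured RNA. In Hoxb7Cre controls it was Gclc (286 CPM per kb), Hmox1 (254), Mt2 (242), Mt1 (178), Srxn1 (90.2), Txnrd1 (78.8), Nqo1 (67.8), Nfe2l2 (66.6), Gclm (26.0) and Keap1 (10.2). The SDs over 10 libraries were 124 for Gclc, 239 for Hmox1 and 166 for Mt2, wider than the steps between these 3, while Gclm and Keap1 (SD 3.29 and 1.08) stood apart from the rest. In total kidney, which was not captured, Mt2 (430 CPM per kb) and Mt1 (399) led, and Keap1 (12.5) was again the lowest.

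**Figure D1:**
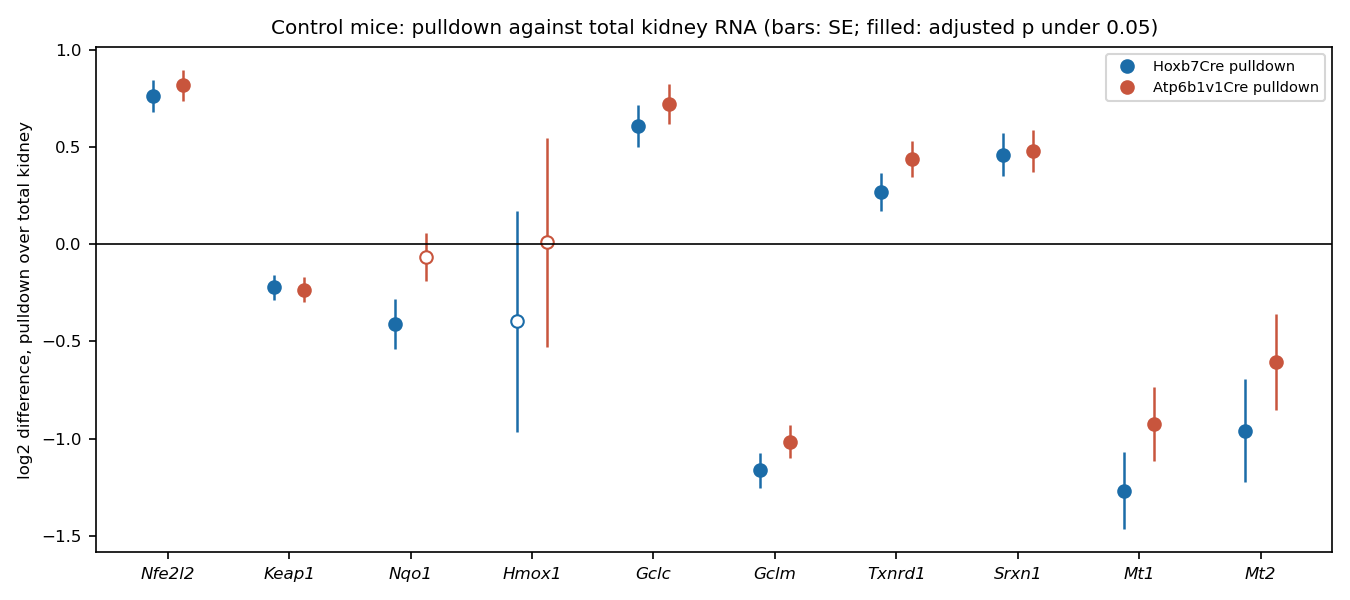
Log2 difference of each member between control pulldowns and total kidney RNA, with Hoxb7Cre in blue (n = 10) and Atp6b1v1Cre in red (n = 11) against 21 total kidney libraries; bars are SE and filled points passed the test. Nfe2l2, Gclc, Txnrd1 and Srxn1 lie above 0 and Keap1, Gclm, Mt1 and Mt2 below it with both drivers, and the wide bars of Hmox1 span 0.

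Hmox1, which encodes heme oxygenase 1, varied the most of the 10 among uninjured mice. In total kidney its level was 64.3 at the lowest, 273 at the median and 3039 at the highest CPM. Once the means of each sex were removed, the SD of log2 CPM was 1.71 over these 21 libraries, against a median of 0.207 for 13888 expressed genes, and 0.245% of those genes varied more. Over the 21 control pulldowns its SD was 1.46, and 0.173% of genes varied more. Mt2 (SD 0.647 in total kidney, 3.07% of genes above it) and Mt1 (0.467, 9.20%) came next, and the other 7 members had an SD of 0.147 to 0.280 there.

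The spread of Hmox1 was not even over the library series. In total kidney the 6 libraries of series C held 64.3 to 143 CPM, the 8 of series B held 65.3 to 1407 CPM and the 7 of series A held 153 to 3039 CPM. Series C is low throughout, and series A and B each hold low and high libraries. The age of the mice, 3 or 5.5 months, goes along with the series in part, and neither was tested as a source of this spread. The injury comparisons of Hmox1 within 1 sex below rest on groups of at most 4 libraries with this spread.

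**Figure D2:**
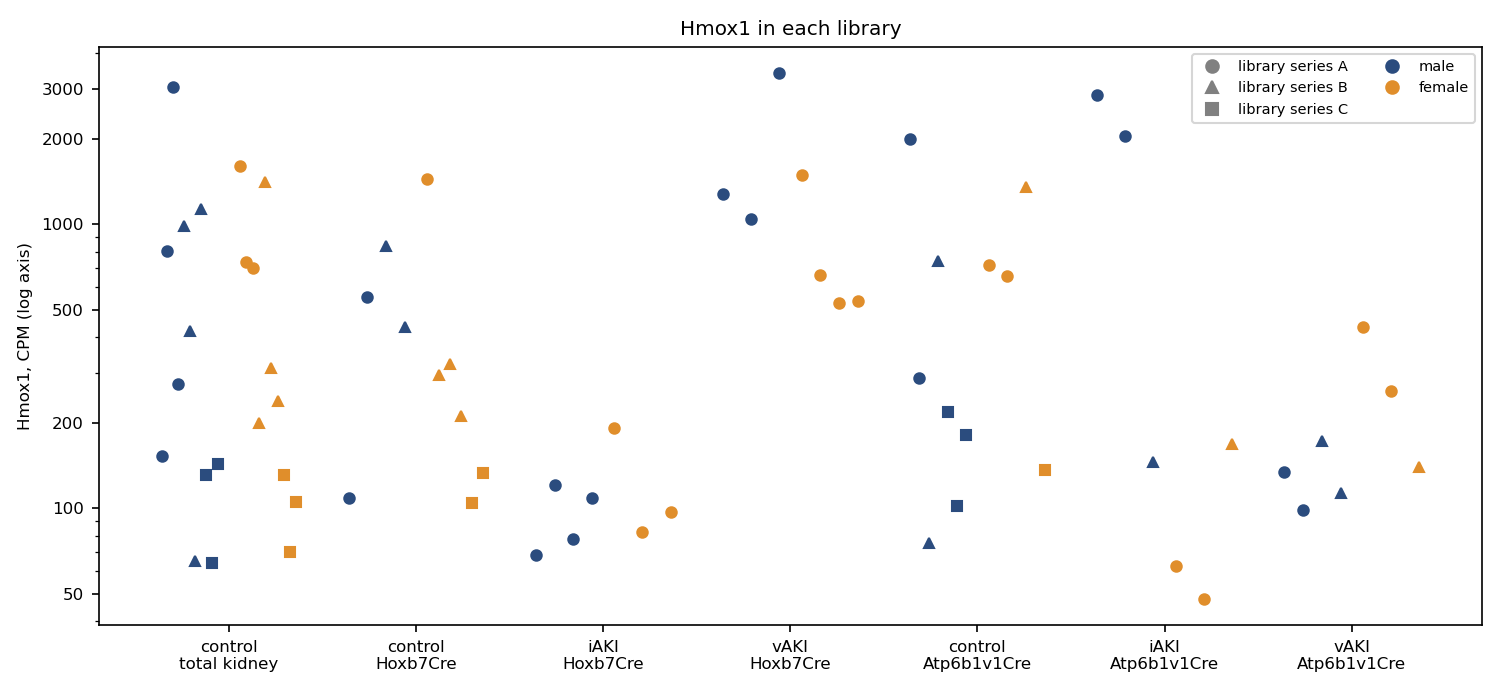
Hmox1 in each of the 69 libraries on a log axis of CPM, by treatment and RNA, with males in blue, females in orange and the library series as symbols. Total kidney spans 64.3 to 3039 CPM, and with Hoxb7Cre the iAKI libraries of both sexes (68.5 to 121 CPM in males and 82.5 to 191 CPM in females) lie below the vAKI libraries (1047 to 3398 and 527 to 1484 CPM).

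The next comparison asked what ischemia did in the Hoxb7Cre collecting duct of males. Srxn1 and Gclc rose and no member fell past the threshold. These 2 of 10 compare with 6.13% of all genes, 3.34% higher and 2.79% lower. Of the 10, 4 lay above all controls in all iAKI libraries (8.2% of all genes did) and none below (7.73%). The median log2 fold change of the 10 was 0.30, against 0.00 over all genes tested.

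Srxn1 read 167, 164, 228 and 224 CPM in the 4 controls and 285, 404, 362 and 327 CPM in the 4 iAKI libraries. All iAKI libraries were above all controls, a 1.77-fold rise (log2 fold change 0.83 ± 0.22, adjusted p = 0.0276). Gclc read 591, 585, 704 and 760.5 CPM in controls and 938, 1528, 1017 and 1364 CPM after ischemia, again with no overlap, a 1.85-fold rise (0.89 ± 0.26, adjusted p = 0.0415). Gclc kept its call without iAKI replicate 4 and lost it without any other of these 8 libraries (0.74 to 0.97, adjusted p from 0.052 to 0.143) or without iAKI replicate 4 of the Atp6b1v1Cre group, which shares the fit (0.87, adjusted p = 0.0512). Srxn1 lost its call without control replicate 2 or 3 or iAKI replicate 5, 6 or 7 (0.72 to 0.85, adjusted p from 0.055 to 0.0966). Neither passed with both sexes in 1 fit (0.29, adjusted p = 0.519 for Gclc and 0.19, adjusted p = 0.681 for Srxn1), and in females alone the values were -0.39 and -0.46.

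Hmox1 was low in every iAKI library: 108.3, 552, 837 and 434 CPM in controls against 68.5, 121, 78.02 and 109.1 CPM. Control replicate 2 sat within the iAKI range, and the change of -2.35 ± 0.76, adjusted p = 0.0704 did not pass. Without that library it was -2.68 (adjusted p = 0.0429), DESeq2 gave -2.36, adjusted p = 0.0322, and it also passed when Atp6b1v1Cre control replicate 6 or 10 or iAKI replicate 5 was left out of the fit (-2.35, -2.35 and -2.37, adjusted p = 0.0449, 0.0416 and 0.0303). Within series A, where 2 controls remain, it was -1.83, adjusted p = 0.0509, and with series as a covariate -2.71, adjusted p = 0.0323.

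The metallothioneins overlapped between the groups. Mt2 read 51.9, 31.3, 148 and 69.2 CPM in controls and 84.2, 289.8, 103.5 and 87.8 CPM after ischemia (0.92 ± 0.49, adjusted p = 0.305). With each library left out in turn its change lay between 0.28 and 1.47 and did not pass. A single iAKI library, replicate 5, held the highest value of Mt2. Mt1 gave 0.07 ± 0.38, adjusted p = 0.997, which became -0.36 (adjusted p = 0.672) without that library and 0.77 (adjusted p = 0.166) within series A. Mt2 within series A was 1.75, adjusted p = 0.0138, with 2 controls, and with series as a covariate 1.69, adjusted p = 0.00454. With both sexes in 1 fit both were below 0 and did not pass (-0.77, adjusted p = 0.233 for Mt1 and -0.35, adjusted p = 0.755 for Mt2). Nfe2l2 itself was slightly higher in every iAKI library, 283, 288, 267 and 294 CPM against 221, 266, 253 and 215 CPM, and did not pass (0.26 ± 0.16, adjusted p = 0.367). Txnrd1 (0.35 ± 0.18, adjusted p = 0.282), Nqo1 (0.48 ± 0.31, adjusted p = 0.396), Gclm (0.17 ± 0.21, adjusted p = 0.693) and Keap1 (-0.23 ± 0.13, adjusted p = 0.365) did not pass either, although within series A Nqo1 did (1.02, adjusted p = 0.0182).

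Volume depletion in the Hoxb7Cre collecting duct of males gave calls for 7 of the 10 genes, the most of the 4 injury comparisons in males. Mt1, Mt2, Srxn1, Txnrd1, Gclc and Nqo1 rose and Keap1 fell. The background is high, with 35.5% of all genes called, 17.9% higher and 17.6% lower. Of the 10, 6 lay above all controls (19.7% of all genes did) and 1, Keap1, below (19.8%). The median of the 10 was 1.11 on the log2 scale, against 0.00 over all genes.

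The metallothioneins rose the most. Mt1 read 82.9, 68.98, 231 and 119 CPM in controls and 334, 557 and 710.1 CPM in the 3 vAKI libraries, a 4.26-fold rise (2.09 ± 0.41, adjusted p = 4.14e-04). Mt2 read 51.9, 31.3, 148 and 69.2 CPM in controls and 309.7, 465 and 592 CPM in vAKI, a 6.08-fold rise (2.60 ± 0.54, adjusted p = 6.30e-04). For both genes the lowest vAKI library lay above the highest control. Within series A, against the 2 controls with the lowest values, the log2 fold changes were 2.82 for Mt1 and 3.46 for Mt2 (adjusted p = 1.47e-05 and 1.50e-05).

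The thiol-repair genes followed. Srxn1 read 324, 632 and 776 CPM in vAKI against 167, 164, 228 and 224 CPM, a 2.95-fold rise (1.56 ± 0.24, adjusted p = 2.40e-05). Txnrd1 read 901, 1018 and 1305 CPM against 460.4, 521, 463 and 481 CPM, a 2.24-fold rise (1.16 ± 0.19, adjusted p = 6.32e-05). Neither gene overlapped with its controls, and the calls of Mt1, Mt2, Srxn1 and Txnrd1 held with each library left out in turn. With both sexes in 1 fit Mt2 was 1.32 and did not pass (adjusted p = 0.0671), while Mt1 (1.03, adjusted p = 0.043), Srxn1 (0.85, 0.00879) and Txnrd1 (0.68, 0.00255) passed with smaller values than in males, and in females alone none of these 4 genes passed.

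Of the glutathione pair Gclc rose, to 997, 1232 and 1884 CPM (2.08-fold, 1.06 ± 0.27, adjusted p = 0.00411), and without vAKI replicate 7 it was 0.76 (adjusted p = 0.0544). Gclm read 125, 111.3 and 208 CPM against 113, 163, 182 and 178 CPM and did not pass (-0.10 ± 0.23, adjusted p = 0.797). Nqo1 read 137, 110.8 and 201 CPM against 52.2, 60.2, 104.1 and 114 CPM (0.86 ± 0.33, adjusted p = 0.0433), overlapping by 1 library on each side, and lost its call without control replicate 2 (0.69, adjusted p = 0.133) or 3 (0.73, 0.121) or vAKI replicate 4 (0.92, 0.0684) or 7 (0.59, 0.245). The Nqo1 controls split by library series. Replicates 2 and 3 (52.2 and 60.2 CPM) are of series A, like the vAKI libraries, and replicates 4 and 5 (104.1 and 114 CPM) are of series B. Nqo1 was 0.41 (adjusted p = 0.266) with both sexes in 1 fit.

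Hmox1 read 1273, 1047 and 3398 CPM in vAKI, each above every control (108.3, 552, 837 and 434 CPM), yet its 3.96-fold difference did not pass (1.99 ± 0.79, adjusted p = 0.0533). Without control replicate 4, the highest control, it passed (2.39, adjusted p = 0.0375), as it did within series A (2.53, adjusted p = 0.00751), without vAKI replicate 6 (2.28, 0.0498) and without any of 3 Atp6b1v1Cre libraries of the fit (control replicates 6 and 10 and iAKI replicate 5, 1.98 to 1.99, adjusted p = 0.0323, 0.0288 and 0.0252). Without vAKI replicate 7, the highest, it was 1.27 (adjusted p = 0.294), and without control replicate 2, the lowest, 1.65 (adjusted p = 0.133). At the top of the pathway Nfe2l2 did not pass (-0.24 ± 0.17, adjusted p = 0.299), with 177, 247 and 181 CPM in vAKI. Keap1 fell to 36.8, 41.1 and 37.96 CPM from 51.7, 51.6, 56.2 and 47.99 CPM (1.34-fold lower, -0.42 ± 0.15, adjusted p = 0.0285). The groups of Keap1 did not overlap, and its call was lost without control replicate 4 (-0.38, adjusted p = 0.0686) or vAKI replicate 4 (-0.39, 0.0819) or 7 (-0.41, 0.0806). It was -0.11 (adjusted p = 0.537) with both sexes in 1 fit and 0.13 (adjusted p = 0.866) in females alone.

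Markers of cell types moved in the same libraries. The 7 principal cell markers summed to 2716 to 3469 CPM in the male Hoxb7Cre controls, 1016 to 1267 CPM in iAKI and 1121 to 1222 CPM in vAKI, with 6 of 7 markers lower in iAKI and 7 of 7 in vAKI. The 9 proximal tubule markers summed to 2134 to 4269 CPM in iAKI and 3415 to 3935 CPM in vAKI, and 0 and 1 of them passed. Of 6 fibroblast markers 5 rose in iAKI and 2 in vAKI, with sums of 124 to 322 CPM and 100.4 to 142 CPM against 40.2 to 91.7 CPM in controls, and none of the 6 was at 0. Of 8 macrophage markers 2 rose in iAKI, and in vAKI 4 rose and 3 fell, with sums of 62.6 to 74.4 and 51.4 to 62.7 CPM against 50.6 to 63.5 CPM. Fat cell markers fell, 5 of 6 in iAKI and 4 of 6 in vAKI, with sums of 13.5 to 37.7 and 45.9 to 67.95 CPM against 52.5 to 134.6 CPM. Endothelial markers lay above all controls after both injuries (187.2 to 226 CPM in iAKI and 207.5 to 267 CPM in vAKI against 97.3 to 182 CPM), with 1 and 2 of 6 passing. Thick ascending limb markers summed to 1912 to 3334 CPM in controls, 2045 to 2297 CPM in iAKI and, with 3 of 4 lower, 1072 to 1201 CPM in vAKI. Of 7 intercalated cell markers 1 was lower in iAKI and 4 in vAKI. The part of these markers in the member changes was not tested.

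**Figure D3:**
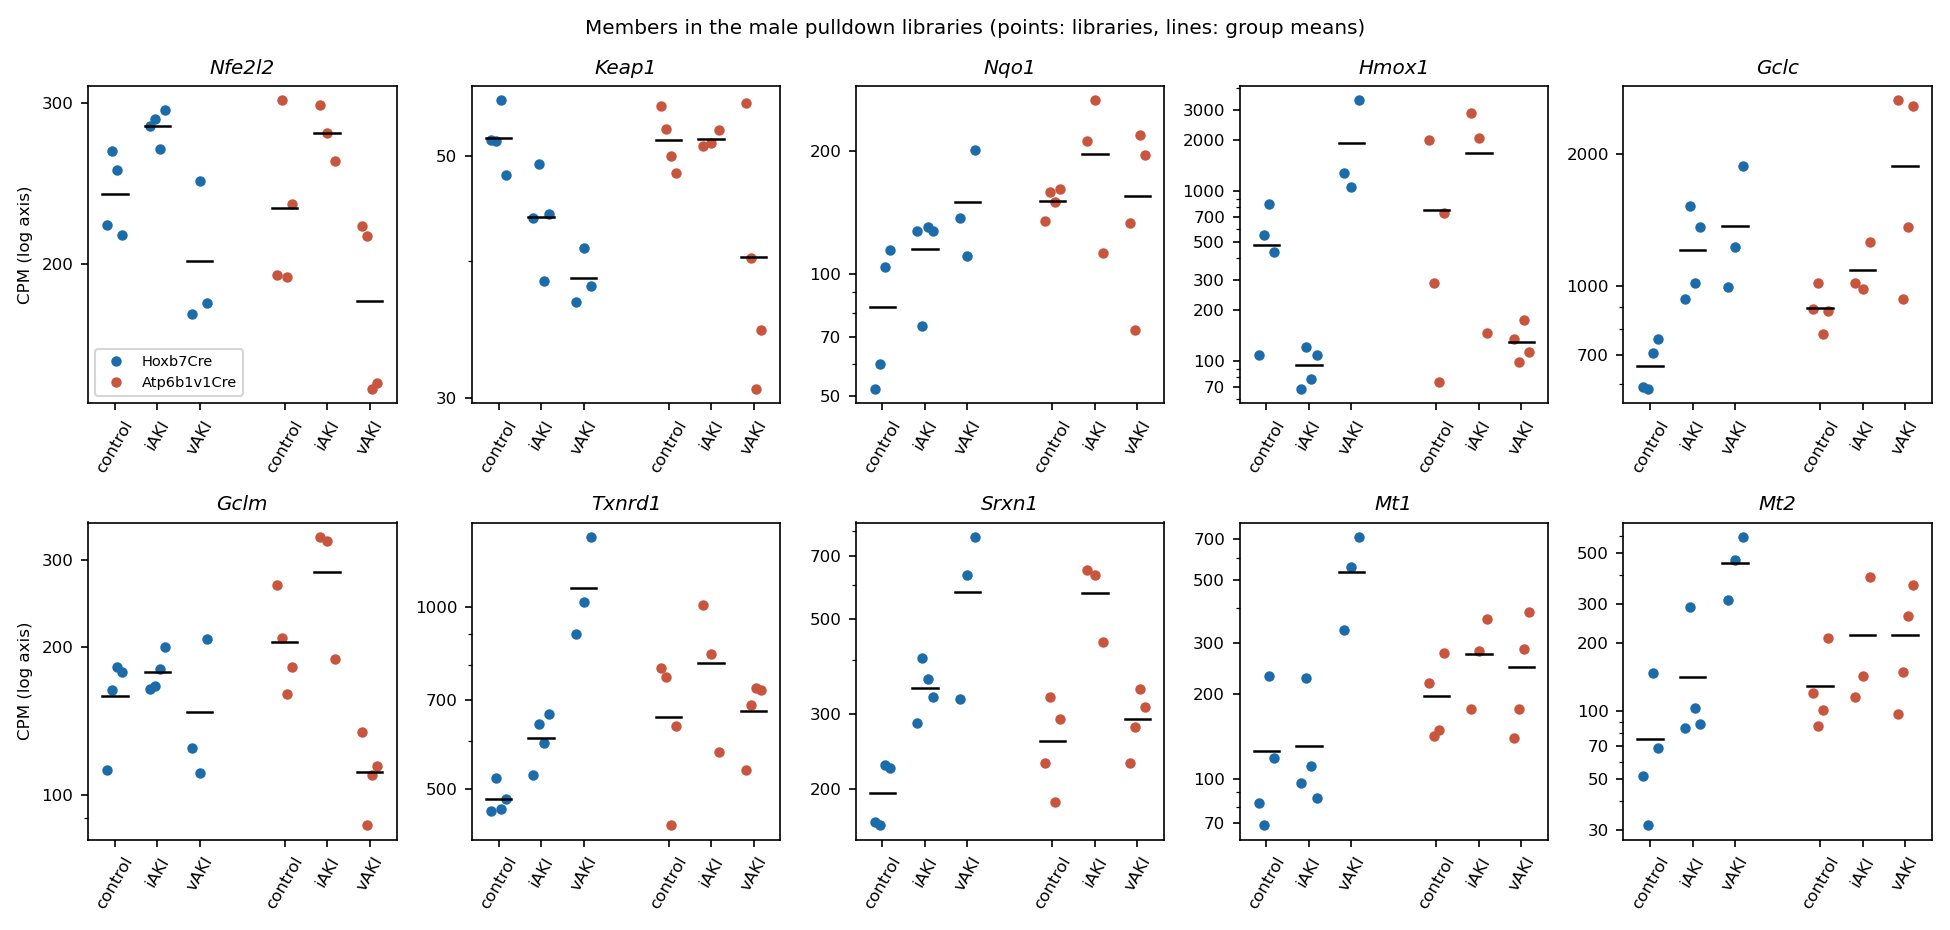
CPM of each member in the male libraries on log axes, Hoxb7Cre in blue and Atp6b1v1Cre in red; points are libraries and lines are group means. With Hoxb7Cre the vAKI points of Mt1, Mt2, Srxn1 and Txnrd1 clear all controls, and with Atp6b1v1Cre those of the same 4 genes overlap their controls.

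The same injuries were then read in the Atp6b1v1Cre pulldowns of males. In ischemia Srxn1 alone of the 10 rose and no member fell, against 8.51% of all genes, 3.77% higher and 4.74% lower. It was also the only member whose iAKI libraries lay above all controls (11.1% of all genes did), and none lay below (9.54%). Srxn1 read 229.8, 328, 186 and 292 CPM in controls and 649, 631 and 441 CPM in iAKI, a 2.20-fold rise without overlap (1.14 ± 0.23, adjusted p = 0.0053), and it passed with each library left out. Hmox1 split within its group, with 2849.8, 2041 and 145 CPM in iAKI and 1995, 288, 75.6 and 742 CPM in controls (1.10 ± 0.78, adjusted p = 0.424). The 2 high iAKI libraries (replicates 1 and 4) are of series A and the low one (replicate 5) is of series B, and within series A the difference was 1.08, adjusted p = 0.364. Gclm read 335, 329 and 189 CPM against 268, 208, 161 and 182 CPM (0.46 ± 0.22, adjusted p = 0.21). The other 7 members gave log2 fold changes from -0.0049 ± 0.15 (Keap1) to 0.73 ± 0.52 (Mt2), none of them past the threshold. With each library left out in turn Mt2 ranged from 0.0022 to 1.09 and Hmox1 from 0.51 to 2.16, and neither passed. The 9 proximal tubule markers summed to 1633 to 2130 CPM here against 3728 to 5591 CPM in controls, with 4 of 9 lower, and the 7 intercalated cell markers to 828 to 2151 CPM against 1033 to 1395 CPM. The sums of the other marker lists overlapped their controls. Within them single markers went both ways on average, such as Umod from 545 to 1323 CPM and Egf from 631 to 230 CPM. Col1a1 went from 4.01 to 23.2 CPM on average. Whether these bear on the member values was not tested.

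In volume depletion with Atp6b1v1Cre Gclc rose while Gclm and Hmox1 fell, against 14.6% of all genes, 8.11% higher and 6.47% lower. Gclm alone lay below all controls (7.41% of all genes did) and none lay above (7.05%). Gclc read 887, 1020.0, 779.7 and 879 CPM in controls and 2650.4, 935, 1364 and 2579.6 CPM in vAKI, a 2.13-fold rise (1.09 ± 0.26, adjusted p = 0.00694) in which replicate 2 stayed in the control range. Within series A, with 2 libraries a side, it was 0.91, adjusted p = 0.122. Gclm read 268, 208, 161 and 182 CPM in controls and 135, 86.96, 109.9 and 115 CPM in vAKI, 1.82-fold lower without overlap (-0.86 ± 0.21, adjusted p = 0.00859). The subunits of this enzyme moved in opposite directions in the same libraries, and both calls held with each library left out.

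Hmox1 read 134, 98.5, 173 and 113 CPM in vAKI and 1995, 288, 75.6 and 742 CPM in controls, 5.92-fold lower (-2.57 ± 0.77, adjusted p = 0.0275). All 4 vAKI libraries were low, and so was control replicate 10. Its call was lost without control replicate 6, the highest (-1.50, adjusted p = 0.208), or without vAKI replicate 2 (-2.45, 0.0627), 6 (-2.74, 0.057) or 7 (-2.51, 0.0781). Mt1 (0.34 ± 0.38, adjusted p = 0.595) and Mt2 (0.76 ± 0.49, adjusted p = 0.33) did not pass, nor did Srxn1 (0.18 ± 0.22, adjusted p = 0.632), Txnrd1 (0.05 ± 0.18, adjusted p = 0.928) or Nqo1 (0.05 ± 0.30, adjusted p = 0.984). Nfe2l2 (-0.32 ± 0.16, adjusted p = 0.179) and Keap1 (-0.34 ± 0.13, adjusted p = 0.0979) did not pass, although Keap1 passed without vAKI replicate 1 (-0.54, adjusted p = 0.00179). With both sexes in 1 fit both passed (-0.75, adjusted p = 0.00138 for Nfe2l2 and -0.43, adjusted p = 0.0037 for Keap1), and with library series as a covariate Keap1 did (-0.35, adjusted p = 0.0491). Intercalated cell markers summed to 631 to 996 CPM in these vAKI libraries against 1033 to 1395 CPM in controls, with 3 of 7 lower, and 4 of 9 proximal tubule markers were lower. Thick ascending limb markers lay below all controls (1103 to 1342 CPM against 1397 to 2863 CPM, 1 of 4 lower). Fat cell markers summed to 26.3 to 43.99 CPM against 43.9 to 104.4 CPM (2 of 6 lower), and macrophage markers to 79.8 to 136 CPM against 123 to 168.6 CPM (1 of 8 lower). The part of these markers was not tested.

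**Figure D4:**
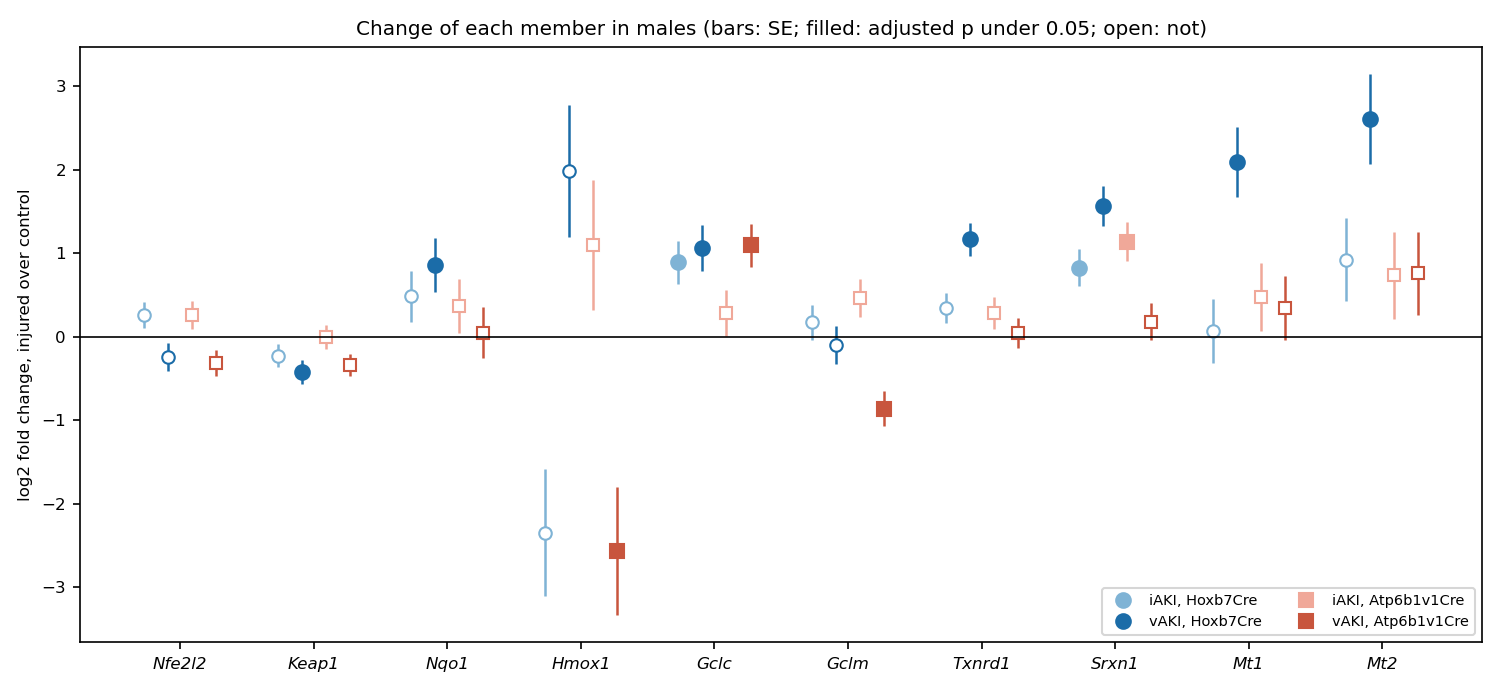
Log2 fold change of each member over controls in the 4 injury comparisons of males, circles for Hoxb7Cre and squares for Atp6b1v1Cre, light for iAKI and dark for vAKI; bars are SE and filled points passed the test. In vAKI the Hoxb7Cre points of Mt1, Mt2, Srxn1, Txnrd1 and Hmox1 lie above the Atp6b1v1Cre points.

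The injuries were then set against each other within a driver. These contrasts compare vAKI with iAKI libraries directly. With Hoxb7Cre 6 of 10 genes passed (33.3% of all genes did). Hmox1 was higher in vAKI by 4.33 ± 0.85, adjusted p = 4.36e-04, Mt1 by 2.02 ± 0.41, adjusted p = 6.18e-04, and Mt2 by 1.68 ± 0.53, adjusted p = 0.0164. Txnrd1 (0.82 ± 0.19, adjusted p = 0.00202) and Srxn1 (0.74 ± 0.23, adjusted p = 0.018) were higher in vAKI too, and Nfe2l2 was lower (-0.50 ± 0.17, adjusted p = 0.026). Hmox1 did not overlap between the injuries, with 68.5 to 121 CPM in iAKI and 1047 to 3398 CPM in vAKI. In females alone Hmox1 (2.69, adjusted p = 0.0665), Txnrd1 (0.43, adjusted p = 0.178) and Mt2 (2.20, adjusted p = 0.0815) did not pass. At least 1 member that did not pass in males passed in females, and the number of female calls is given in the closing section. The calls of Hmox1, Mt1 and Txnrd1 held with every male library left out, with Hmox1 at 3.61 to 4.63. That of Mt2 was lost without iAKI replicate 4 (1.50, adjusted p = 0.0525) or 7 (1.51, 0.0535) or vAKI replicate 7 (1.45, 0.0742), and that of Srxn1 without iAKI replicate 4 (0.65, 0.0565) or vAKI replicate 6 (0.67, 0.0681) or 7 (0.46, 0.187). Nfe2l2 lost its call without iAKI replicate 5 (-0.47, 0.0608) or 7 (-0.47, 0.0585) or vAKI replicate 4 (-0.40, 0.129) or 7 (-0.43, 0.116), and with both sexes in 1 fit it was -0.20, adjusted p = 0.42. The other 4 members lay between -0.28 ± 0.23 (Gclm) and 0.37 ± 0.33 (Nqo1).

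With Atp6b1v1Cre 5 of 10 passed (29.3% of all genes did). Gclm (-1.32 ± 0.22, adjusted p = 1.57e-04), Hmox1 (-3.66 ± 0.83, adjusted p = 0.002), Srxn1 (-0.95 ± 0.23, adjusted p = 0.00369) and Nfe2l2 (-0.58 ± 0.17, adjusted p = 0.0106) were lower in vAKI than in iAKI and Gclc was higher (0.81 ± 0.28, adjusted p = 0.0322). The call of Gclc was lost without iAKI replicate 1 (0.75, adjusted p = 0.113) or 4 (0.73, 0.115) or vAKI replicate 1 (0.60, 0.109) or 7 (0.60, 0.12). Within series A neither Gclc (0.85, adjusted p = 0.0743) nor Nfe2l2 (-0.39, adjusted p = 0.119) passed. The other 5 members lay between -0.33 ± 0.14 (Keap1) and 0.024 ± 0.53 (Mt2). Srxn1 and Hmox1 were higher in vAKI with Hoxb7Cre and higher in iAKI with Atp6b1v1Cre in these males. Hmox1 overlapped between the injuries with Atp6b1v1Cre, since the low iAKI library (145 CPM) lies within the vAKI range (98.5 to 173 CPM), and in females it changed sign there (1.61, adjusted p = 0.142). Srxn1 did not pass in females with either driver (0.72, adjusted p = 0.143 with Hoxb7Cre and -0.35, adjusted p = 0.403 with Atp6b1v1Cre). For Nfe2l2 both drivers gave a lower level in vAKI than in iAKI in males, with the losses of its calls given above, and in females with Hoxb7Cre the value was 0.022 (adjusted p = 1).

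Whether an injury acted differently in the tagged populations was tested as a difference of the fold changes, Atp6b1v1Cre minus Hoxb7Cre. In volume depletion 3 of 10 genes passed (4.2% of all genes did), each lower with Atp6b1v1Cre. They were Hmox1 (-4.55 ± 1.10, adjusted p = 0.0189), Srxn1 (-1.38 ± 0.32, adjusted p = 0.0153) and Txnrd1 (-1.12 ± 0.26, adjusted p = 0.0162). All 3 calls were lost without vAKI replicate 7 of the Hoxb7Cre group, with differences of -3.83, -1.11 and -0.95 and adjusted p of 0.0798, 0.0759 and 0.0712. With both sexes in 1 fit none of the 3 passed (-3.21, adjusted p = 0.154 for Hmox1, -0.46, adjusted p = 0.552 for Srxn1 and -0.48, adjusted p = 0.35 for Txnrd1). In females alone Hmox1 gave -2.06, adjusted p = 0.259, and Srxn1 (0.38, adjusted p = 0.61) and Txnrd1 (0.12, adjusted p = 0.861) changed sign. The metallothioneins gave differences of -1.75 ± 0.56 for Mt1 and -1.85 ± 0.72 for Mt2 that did not pass (adjusted p = 0.0774 and 0.155). Within series A, which holds 2 controls of each driver, they did (-3.01, adjusted p = 0.00139 for Mt1 and -3.22, adjusted p = 0.00296 for Mt2). Mt1 also passed without Hoxb7Cre control replicate 4 (-2.23, adjusted p = 0.0155) or Atp6b1v1Cre vAKI replicate 7 (-2.05, 0.0372), and Mt2 without that control (-2.42, 0.0454). The other 5 members lay between -0.81 ± 0.45 (Nqo1) and 0.083 ± 0.20 (Keap1) in the full male fit. Within series A some of these 5 passed too, since more members passed there than the genes named above.

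In ischemia none of the 10 differed between the drivers (7.79% of all genes did with edgeR). Hmox1 came closest (3.44 ± 1.08, adjusted p = 0.0525) and was the only member at an unadjusted p under 0.05, the other 9 lying between -0.61 ± 0.38 (Gclc) and 0.41 ± 0.56 (Mt1). In females alone it changed sign (-0.98, adjusted p = 0.875). DESeq2 called it in males (3.46, adjusted p = 0.0251), as did edgeR with a stricter filter on low counts (3.48, adjusted p = 0.0456), within series A (2.90, adjusted p = 0.0409) and without Hoxb7Cre control replicate 2 (3.77, 0.0322), Atp6b1v1Cre control replicate 6 (4.50, 0.0132), iAKI replicate 5 (4.04, 0.0103) or vAKI replicate 7 (3.50, 0.0495).

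With a further limit of at least 1 on the absolute log2 fold change, the calls among the 10 genes were 0 in iAKI with Hoxb7Cre (2.3% of all genes), 5 in vAKI with Hoxb7Cre (16.4%), 1 in iAKI with Atp6b1v1Cre (2.82%) and 2 in vAKI with Atp6b1v1Cre (5.15%). Between the injuries they were 3 with Hoxb7Cre (14.7%) and 2 with Atp6b1v1Cre (11.6%), and between the drivers 0 in iAKI (3.49%) and 3 in vAKI (2.93%). Against total kidney 2 genes with Hoxb7Cre (32.5%) and 1 with Atp6b1v1Cre (27.7%) kept a call, and 0 between the control pulldowns (4.11%).

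The share of all genes called, beside which the members' counts stand, itself rested on single libraries in 5 comparisons. In iAKI with Hoxb7Cre 1298 genes passed, and 645 to 828 without control replicate 3 or iAKI replicate 5, 6 or 7. In iAKI with Atp6b1v1Cre 1803 genes passed, 410 without iAKI replicate 1, and 1030 to 1096 without iAKI replicate 4 or control replicate 9 or 11. In vAKI with Atp6b1v1Cre 3086 genes passed, and 1640 to 2001 without control replicate 6 or 10 or vAKI replicate 6 or 7. The driver difference in iAKI passed in 1649 genes, and in 599 to 1083 without Hoxb7Cre control replicate 3 or iAKI replicate 4 or 6, or Atp6b1v1Cre control replicate 9 or 11 or iAKI replicate 1 or 4. That in vAKI passed in 890 genes, and in 411 to 569 without Hoxb7Cre control replicate 3 or vAKI replicate 6 or 7.

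The males' responses were set against females of the same age. In the Hoxb7Cre collecting duct of females edgeR called 0 of the 10 genes in ischemia (3.14% of all genes) and 0 in volume depletion (0.109%), with 3 and 1 at an unadjusted p under 0.05. The fold changes of 8 members in ischemia and 2 in volume depletion had the opposite sign to those of males. In ischemia 2 of the 10, Mt1 and Mt2, lay below all female controls (12% of all genes did) and 0 above (10.8%), and in volume depletion 0 lay above (1.54%) or below (1.96%). The test of the difference, female minus male, called 3 of 10 genes in ischemia (10.5% of all genes) and 3 of 10 in volume depletion (16% of all genes). In ischemia they were Mt2 (-2.85 ± 0.91, adjusted p = 0.0385), Srxn1 (-1.31 ± 0.37, adjusted p = 0.0232) and Gclc (-1.30 ± 0.42, adjusted p = 0.04). In volume depletion they were Mt1 (-1.98 ± 0.63, adjusted p = 0.0293), Srxn1 (-1.31 ± 0.37, adjusted p = 0.0157) and Txnrd1 (-0.91 ± 0.26, adjusted p = 0.016), and Mt2 did not pass (-2.32 ± 0.88, adjusted p = 0.0636). The remaining members lay between -1.65 ± 0.64 (Mt1) and 0.35 ± 1.13 (Hmox1) in ischemia and between -1.28 ± 1.13 (Hmox1) and 0.54 ± 0.20 (Keap1) in volume depletion. With library series as a covariate the differences in ischemia were -2.99, adjusted p = 0.00858 for Mt2, -1.44, adjusted p = 0.00997 for Srxn1 and -1.16, adjusted p = 0.06 for Gclc. In volume depletion they were -2.12, adjusted p = 0.00403 for Mt1, -1.45, adjusted p = 0.00455 for Srxn1 and -1.09, adjusted p = 0.00402 for Txnrd1. Of the 4 female controls 1 is of series A, 1 of B and 2 of C, too few for values within a series.

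The levels behind these differences are given for females here, without a test against the male levels above. Mt1 read 167, 471, 272 and 289 CPM in female Hoxb7Cre controls, 114, 106.7 and 80.8 CPM in iAKI and 175, 483, 239 and 402 CPM in vAKI. All 3 female iAKI libraries lay below all female controls, and the vAKI libraries spanned a range like that of the controls. Mt2 read 79.8, 368, 167 and 191 CPM in controls, 66.9, 64.99 and 27.8 CPM in iAKI and 103.1, 383, 139 and 358 CPM in vAKI, with the same order. In these females the ischemic change was -1.57, adjusted p = 0.0639 for Mt1 and -1.91, adjusted p = 0.111 for Mt2, and in volume depletion it was 0.12, adjusted p = 1 and 0.29, adjusted p = 0.967.

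Gclc read 871, 1896, 1756 and 1264 CPM in female controls, all above the highest of the male controls (585 to 760.5 CPM), and 1428, 1106 and 758 CPM in iAKI (-0.39, adjusted p = 0.4663). Srxn1 read 269, 420.3, 228 and 296 CPM in female controls, of which the lowest is level with the highest of the male controls (164 to 228 CPM), 246, 187 and 223 CPM in iAKI and 359, 461, 340.3 and 293 CPM in vAKI. Txnrd1 read 743, 758, 575 and 538 CPM in female controls and 769, 888, 735 and 742 CPM in vAKI, against 460.4, 521, 463 and 481 and 901, 1018 and 1305 CPM in males. Principal cell markers summed to 1116 to 2450 CPM in female Hoxb7Cre controls, 1447 to 2880 CPM in iAKI and 1165 to 2122 CPM in vAKI, unlike the males, whose controls stood at 2716 to 3469 CPM and lay above both injured groups. Thick ascending limb markers summed to 3787 to 5155 CPM in female iAKI against 1341 to 3883 CPM in female controls, with 1 of 4, Umod, higher, whereas the male iAKI sums (2045 to 2297 CPM) lay within the range of their controls. Of the other markers in female iAKI 1 of 8 of macrophages (Adgre1) and 1 of 6 of fibroblasts (Col1a1) rose and 1 of 6 of fat cells (Ucp1) fell, with sums of 56.2 to 97.6, 81.7 to 127 and 38 to 60.9 CPM against 38.4 to 95.8, 90.3 to 96 and 28.2 to 122 CPM in controls. No principal cell, intercalated cell, proximal tubule or endothelial marker passed there, proximal tubule markers summing to 3819 to 5979 CPM against 2340 to 5214 CPM, and in female vAKI no marker of any of these lists passed. The part of these markers in the difference between the sexes was not tested.

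With Atp6b1v1Cre no gene of the 21175 had a difference of effect between the sexes that passed with edgeR in either injury, while 676 in ischemia and 1756 in volume depletion had an unadjusted p under 0.05, and DESeq2 called 1 and 45. None of the 10 members passed (0% of all genes did). Of the members, Hmox1 (-4.09 ± 1.22, unadjusted p = 0.00186) and Nfe2l2 (-0.65 ± 0.32, 0.0479) in ischemia and Nfe2l2 (-0.96 ± 0.31, 0.00334) in volume depletion were below 0.05 unadjusted. The remaining members lay between -0.34 ± 0.43 (Gclc) and 0.15 ± 0.21 (Keap1) in ischemia and between -0.21 ± 0.20 (Keap1) and 1.22 ± 1.13 (Hmox1) in volume depletion. In volume depletion females gave 4 calls among the 10 (18% of all genes), including both glutathione subunits, with Gclc at 1.01, adjusted p = 0.0274 and Gclm at -0.79, adjusted p = 0.0397. Gclm read 148, 183, 188 and 183 CPM in female controls and 87.7, 104.3 and 111.0 CPM in vAKI, without overlap, and Gclc 1202, 1069, 1429 and 1556 and 2443, 2015 and 3460.4 CPM, also without overlap. Nfe2l2 passed in females (-1.30, adjusted p = 0.0047), from 292, 219.6, 357 and 280.2 CPM to 93.01, 112 and 145 CPM, and so did Keap1 (-0.56, adjusted p = 0.0223). Intercalated cell markers (830.3 to 1172 CPM against 1265 to 1670 CPM) and macrophage markers (63.1 to 103.8 CPM against 111.2 to 164 CPM) lay below all female controls in these vAKI libraries. Endothelial and fibroblast markers were as low as 31.3 and 21.5 CPM in a single vAKI library, replicate 5, against 121 to 219.9 and 125.8 to 198.5 CPM in controls. Without that library, left out after seeing the data, Nfe2l2 alone kept its call (-1.48, adjusted p = 0.0103), and Gclc (0.77, adjusted p = 0.132), Gclm (-0.86, adjusted p = 0.0672) and Keap1 (-0.56, adjusted p = 0.057) did not pass. The part of the markers was not tested. In all, 2 members lay above all controls (15% of all genes did) and 3 below (16.2%). In ischemia 0 were called (2.66% of all genes, 2 members at an unadjusted p under 0.05). Gclm and Srxn1 lay above all controls (10% of all genes did) and none below (7.1%). Srxn1 gave 0.98, adjusted p = 0.0576 in females, with 202, 192, 362 and 221 CPM in controls and 417, 369 and 683 CPM in iAKI, no overlap, and no call. Of the cell type markers Col1a1 alone passed in female iAKI with Atp6b1v1Cre, higher, and the sum of every marker list overlapped its controls. Hmox1 read 62.7, 48.05 and 168 CPM in female iAKI, against 718, 659, 1352 and 136 CPM in controls (-2.97, adjusted p = 0.0579).

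**Figure D5:**
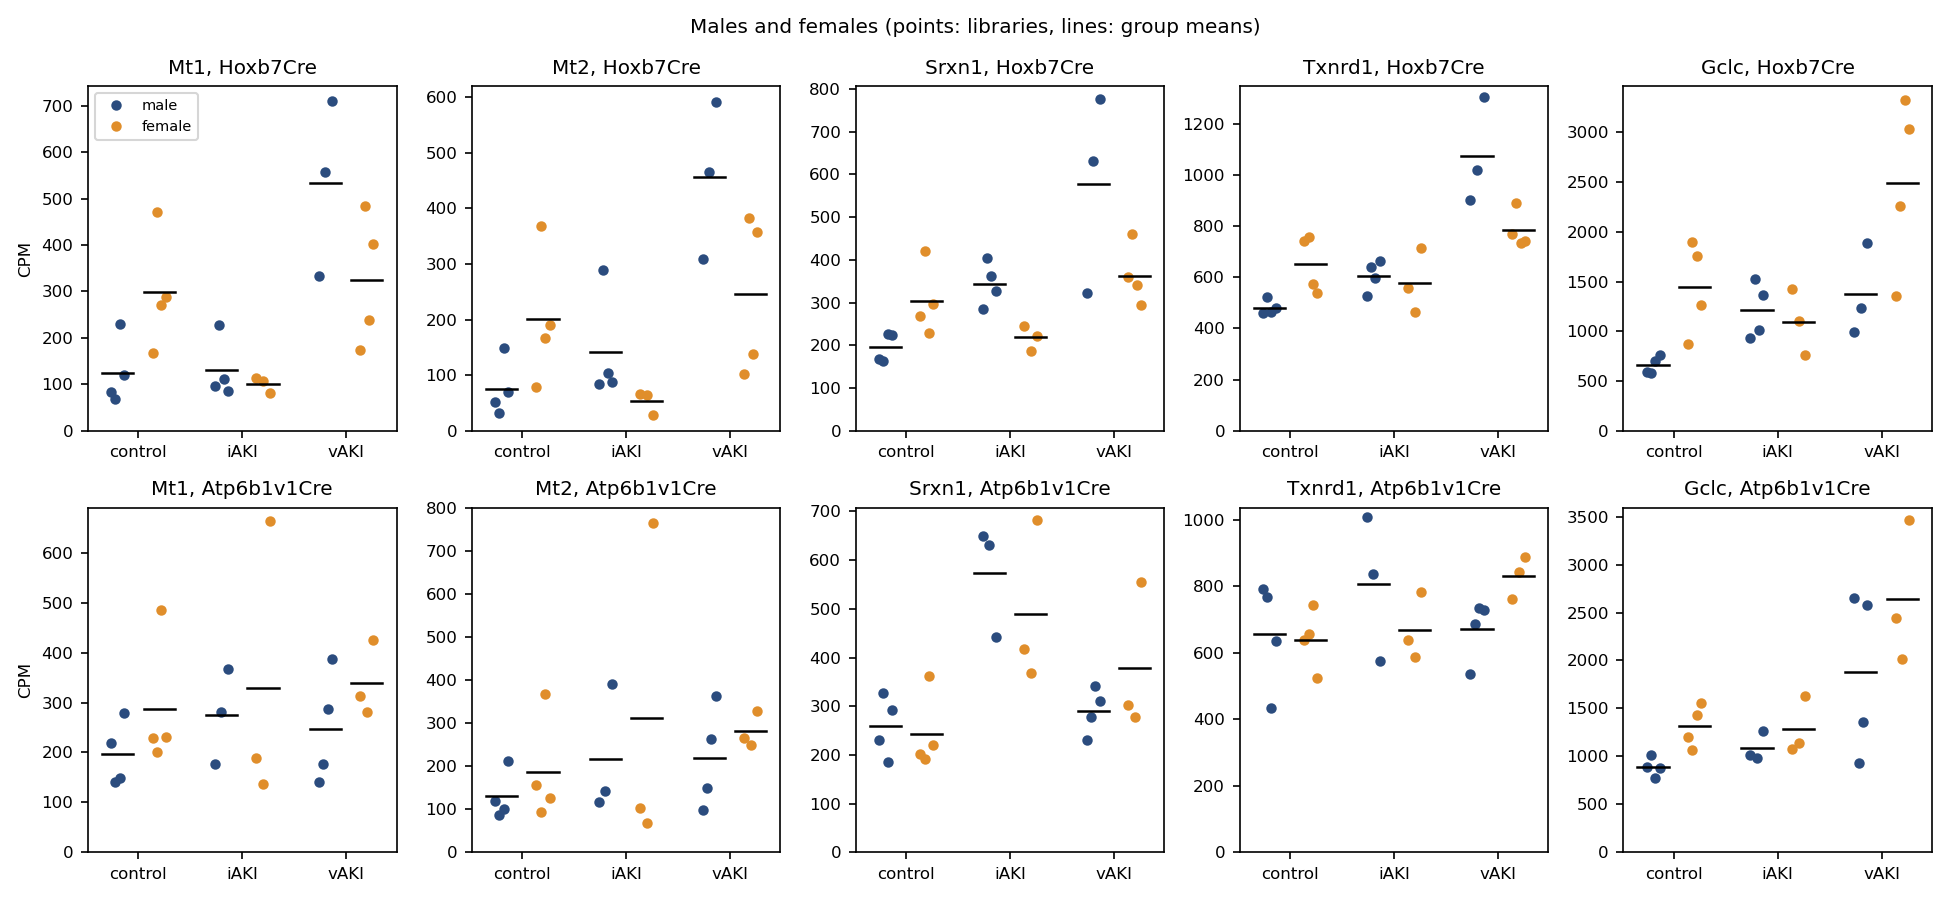
CPM of Mt1, Mt2, Srxn1, Txnrd1 and Gclc in males (blue) and females (orange), Hoxb7Cre above and Atp6b1v1Cre below; points are libraries and lines are group means. With Hoxb7Cre all male control values of Gclc and Txnrd1 lie below all female control values, and with Atp6b1v1Cre the 3 female vAKI values of Gclc lie above all female controls.

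The partners of NRF2 were read next from a list of 12, and the calls for this list and the next 3 are those of the male fit. In volume depletion with Hoxb7Cre 6 rose and 2 fell, against 17.9% and 17.6% of all genes (median 0.38). The small MAF proteins Maff (3.04 ± 0.44, adjusted p = 1.44e-05, from 24.5 to 201 CPM on average) and Mafk (2.12 ± 0.27, adjusted p = 4.22e-06, 73.1 to 317 CPM) rose, as did the repressor Bach1 (1.54 ± 0.17, adjusted p = 1.05e-06, 143 to 413 CPM). The related factors Nfe2l3 (-0.96, adjusted p = 0.00433) and Nfe2l1 (-0.79, adjusted p = 1.25e-04) fell. With Atp6b1v1Cre 3 rose and 1 fell, against 8.11% and 6.47% of all genes (median 0.18), and they were Maff (1.62, adjusted p = 0.00933), Mafk (1.19, adjusted p = 0.00363), Bach1 (0.50, adjusted p = 0.0415) and, lower, Nfe2l1 (-0.44, adjusted p = 0.0216). In ischemia Bach1 fell with Atp6b1v1Cre (-0.90, adjusted p = 0.00414), as did its relative Bach2 (-0.98, adjusted p = 0.00107), with 0 rises and 2 falls of 12, against 3.77% and 4.74% of all genes (median -0.04). With Hoxb7Cre 0 rose and 1 fell, Nfe2l1 (-0.44, adjusted p = 0.0369), against 3.34% and 2.79% of all genes (median -0.07).

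Of 32 other NRF2 targets, 10 rose and 1 fell in ischemia with Atp6b1v1Cre, where 3.77% of all genes rose and 4.74% fell (median 0.32). The largest were the glutathione transferase Gsta1 (2.84, adjusted p = 0.016, on average 0.380 to 2.84 CPM), the aldo-keto reductase Akr1b8 (1.53, adjusted p = 0.00399) and the carbonyl reductase Cbr3 (1.51, adjusted p = 0.00899), and Osgin1 fell (-1.12, adjusted p = 0.0479). In volume depletion with the same driver 0 rose and 4 fell, against 8.11% and 6.47% of all genes (median -0.22), the largest falls being the transporter Abcc2 (-1.59, adjusted p = 0.00981), the UDP-glucose dehydrogenase Ugdh (-1.07, adjusted p = 0.00145) and malic enzyme Me1 (-0.85, adjusted p = 0.00237). With Hoxb7Cre 0 rose and 1 fell in ischemia, the epoxide hydrolase Ephx1 (-0.68, adjusted p = 0.00507), where 3.34% of all genes rose and 2.79% fell (median 0.09). In volume depletion there 3 rose, Osgin1 (2.22, adjusted p = 2.89e-05), Gsta2 (1.21, adjusted p = 0.0198) and Cbr3 (0.90, adjusted p = 0.043), and 5 fell, led by Abcc3 (-0.77, adjusted p = 0.00976), Me1 (-0.67, adjusted p = 0.00711) and Abcc4 (-0.60, adjusted p = 0.0105), with a median of 0.12. These 8 of 32 are a smaller share than the 35.5% of all genes called in that comparison. Glutathione transferase genes of 1 family share sequence, and reads that align equally well to several of them are not in these counts.

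Of 16 other antioxidant enzymes, 6 rose and 1 fell in volume depletion with Hoxb7Cre, against 17.9% and 17.6% of all genes (median 0.21). Glutathione peroxidases Gpx4 (1.01, adjusted p = 6.89e-04) and Gpx1 (0.79, adjusted p = 3.09e-04) and the thioredoxin reductase Txnrd3 (0.78, adjusted p = 9.67e-06) were the largest rises, and the mitochondrial peroxiredoxin Prdx3 fell (-0.46, adjusted p = 0.00214). With Atp6b1v1Cre 1 rose, Txnrd3 (0.45, adjusted p = 0.0053), and 3 fell, catalase Cat (-0.76, adjusted p = 0.0174), glutathione synthetase Gss (-0.59, adjusted p = 0.023) and extracellular superoxide dismutase Sod3 (-0.54, adjusted p = 0.0403), against 8.11% and 6.47% of all genes and with a median of 0.01. In ischemia Prdx3 rose with Atp6b1v1Cre (0.41, adjusted p = 0.0202) where Gpx1 fell (-0.61, adjusted p = 0.018; median -0.13), and with Hoxb7Cre Prdx3 fell (-0.36, adjusted p = 0.0376) and none rose, so that 2 and 1 of 16 were called, against 8.51% and 6.13% of all genes. At baseline 15 of these 16 enzymes were below total kidney in both kinds of pulldown (medians -2.46 and -2.44), as were 23 and 24 of the 32 other targets (medians -1.04 and -1.11), against medians of -0.31 and -0.03 for the 10 members and 0.11 over all genes, of which 66.6% and 63.8% passed in either direction.

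Zinc handling was read from 27 genes of transport and sensing, because metallothioneins bind zinc. In volume depletion with Hoxb7Cre 3 rose and 8 fell (median -0.09), and these 11 of 27 lie near the 35.5% of all genes called, 17.9% higher and 17.6% lower. The zinc importer Slc39a14 rose (1.72 ± 0.24, adjusted p = 8.37e-06, on average 165 to 542 CPM), as did the zinc exporter Slc30a1, which MTF1 is also known to induce (0.70 ± 0.16, adjusted p = 0.00134, 212 to 343 CPM). The importer Slc39a10 fell (-1.16, adjusted p = 8.50e-04), and Slc30a3, Slc30a8 and Slc39a2 passed at averages of no more than 1.63 CPM (3.02, adjusted p = 0.00114, -2.17, adjusted p = 0.035 and -1.02, adjusted p = 0.00243). With Atp6b1v1Cre Slc39a14 rose (0.94, adjusted p = 0.00677) and Slc30a6 fell (-0.45, adjusted p = 0.0215), 1 each of 27, against 8.11% and 6.47% of all genes (median -0.17). In ischemia with Hoxb7Cre Slc39a14 was the only gene of the list to pass (1.24 ± 0.22, adjusted p = 0.00247, 165 to 388 CPM; median 0.01), where 6.13% of all genes passed. With Atp6b1v1Cre Slc39a13 (0.52, adjusted p = 0.022) and Slc39a1 (0.52, adjusted p = 0.0104) rose and Slc30a2 (-1.17, adjusted p = 0.0419) and Slc30a1 (-0.81, adjusted p = 0.00448) fell, against 3.77% and 4.74% of all genes (median 0.01).

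In females the same 4 lists gave other counts. In volume depletion with Hoxb7Cre no gene of the 4 lists passed in females (0.109% of all genes did), and the medians were 0.06 for the partners, -0.02 for the other targets, 0.14 for the antioxidant enzymes and 0.13 for zinc handling. In ischemia with Hoxb7Cre Bach1 fell and Slc39a10 rose, and no other gene of the lists passed (3.14% of all genes did). In female iAKI with Atp6b1v1Cre the partners Bach1, Bach2 and Sqstm1 fell and the zinc gene Slc39a1 rose, while of the other targets Taldo1, Akr1b8 and Osgin1 passed, 2 of them higher and 1 lower, and no antioxidant enzyme passed (2.66% of all genes passed). In volume depletion with Atp6b1v1Cre 5 of the 12 partners rose and 1 fell, 1 of the 32 other targets rose and 5 fell, 2 of the 16 antioxidant enzymes rose and 1 fell, and 1 of the 27 zinc genes rose and 5 fell, against 9.2% of all genes higher and 8.81% lower. These counts include vAKI replicate 5, whose marker levels are given above. Differences between the sexes were not tested for these lists.

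The genes with the pattern most like each member were taken by Pearson's r of log2 CPM over the 22 male pulldowns, among 14045 genes with a mean of at least 1 CPM. These libraries share groups and series, so the values describe likeness in these libraries. Mt1 and Mt2 were each other's nearest gene (r = 0.95), and over the 21 total kidney libraries, with the means of each sex removed, r was 0.97. The next nearest of both was the actin-bundling gene Fscn1 (r = 0.91 with Mt1 and 0.93 with Mt2), which in total kidney gave 0.022 and -0.081. The third were Trp53i13 with Mt1 (0.90) and Snora65 with Mt2 (0.92).

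Hmox1 was nearest to Kdelr2, a receptor that returns proteins to the endoplasmic reticulum (r = 0.92, and 0.73 in total kidney), then to Prdx1 (0.85, and -0.41) and Gsta2 (0.84, and 0.31). Keap1 followed Tada3 (0.94, and 0.80), Ext2 (0.93, and 0.21) and Sgta (0.92, and 0.72). Nfe2l2 followed Babam1 (0.89), Slc45a3 (0.88) and Cklf (0.84), with -0.15, 0.69 and 0.53 in total kidney. Among the genes nearest to Srxn1 were the ribosomal protein genes Rpl11 and Rps21 (both 0.84, and 0.092 and -0.076 in total kidney). Among the genes nearest to Txnrd1 were Myl6 (0.87, and -0.62 in total kidney) and Dbi (0.86, and -0.52). Gclm followed Ugdh (0.88, and 0.44), Erp29 (0.87, and 0.11) and Gstp1 (0.84, and 0.55), Gclc followed Xbp1 (0.83, and 0.56), Gbp7 (0.81, and 0.48) and Sowahb (0.81, and 0.30), and Nqo1 followed Hoxa9 (0.83, and 0.26), Vimp (0.81, and 0.59) and Hoxa10 (0.79, and 0.17). Among the members themselves Srxn1 and Txnrd1 gave the highest r after the metallothionein pair (0.82), and Nfe2l2 ranged from -0.43 with Mt1 to 0.48 with Gclm and 0.57 with Keap1.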

How the data were processed

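Per the labels, biotinylated 4-TU-tagged RNA was captured on streptavidin beads and sequenced from TruSeq libraries. The submitters' processing notes name CASAVA 1.8.2, Trimmomatic 0.36, STAR 2.5.3a, HTSeq 0.6.1p2 and mm10. The authors deposited 1 matrix of raw counts per gene symbol for 69 libraries. Per the study's methods STAR and HTSeq ran with default settings. HTSeq then reads the library as stranded and leaves out reads that align to several places or overlap several genes, so genes that overlap or share sequence are undercounted. The labels do not say whether the kit marked strand, and the annotation is not given in the sources used here.

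Groups came from the labels. Genes with at least 2 counts in total (21175 of 24411) were tested with edgeR 4.0.16 in R 4.3.3 (TMM factors, quasi-likelihood test, Benjamini-Hochberg adjustment over all genes, threshold 0.05). One fit held the 22 male pulldowns of 5.5 months, another the 42 control libraries with sex as covariate, and the last the 43 pulldowns of 5.5 months. CPM for display used TMM over all 69 libraries, and correlations used log2 CPM with a prior count of 2. Gene positions came from GENCODE vM21 and promoters from RefSeq. No library pair of a group held identical counts (388 pairs compared). The fits were tested on simulated data. In the text "rose" and "fell" mean that the test was passed. All 10 members enter every comparison, by value or by range, with the 3 largest rises and falls among the passing genes of each list and the 3 genes most like each member, of which 1 each for Srxn1 and Txnrd1 is not reported here.

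The members and lists were chosen with earlier results of these data known. Alternatives tried were RLE factors, DESeq2 1.42.0, filterByExpr, no filter, both sexes, females or males only, library series as covariate, series A only, driver with sex, age and series as 1 covariate, and females without 1 vAKI library (these 3 added after the data were seen), a replicate block, leaving out each library, and an added limit of 1 on the absolute log2 fold change.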

Additional observations from a re-analysis of the deposited data

Results flagged for a closer look

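Each group of 4 to 10 libraries of 1 sex was searched for a library far from the rest, which chance gives in about 1 of 20 groups. Of 80 such sets of values, 8 held one. Among female controls these were Gclc at 1352 CPM in a total kidney library (the others up to 892), Gclm at 148 CPM in an Atp6b1v1Cre pulldown (the others from 183), Hmox1 at 1442 CPM in a Hoxb7Cre pulldown (the others up to 295), Mt1 at 484 CPM in an Atp6b1v1Cre pulldown (the others up to 231) and Srxn1 at 362 CPM in an Atp6b1v1Cre pulldown (the others up to 221). Mt1 and Srxn1 stood high in the same Atp6b1v1Cre library. In female vAKI pulldowns with Hoxb7Cre Hmox1 reached 1484 CPM in 1 library (the others up to 662). In male iAKI pulldowns with Hoxb7Cre Mt2 reached 290 CPM (the others lower) and Nqo1 was as low as 74.7 CPM (the others from 127) in the same library, replicate 5.

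Differences of effect that passed the test were Hmox1 (-4.55 ± 1.10), Txnrd1 (-1.12 ± 0.26) and Srxn1 (-1.38 ± 0.32) between the drivers in volume depletion, Gclc (-1.30 ± 0.42), Srxn1 (-1.31 ± 0.37) and Mt2 (-2.85 ± 0.91) between females and males in ischemia with Hoxb7Cre, and Txnrd1 (-0.91 ± 0.26), Srxn1 (-1.31 ± 0.37) and Mt1 (-1.98 ± 0.63) between females and males in volume depletion with Hoxb7Cre. Each is a difference of log2 fold changes ± SE.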

How the results depend on the processing

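Of 743 values of single members under other settings, 635 stayed on their side of the threshold and kept their direction, where a value under the threshold was counted as keeping its direction if it changed sign but moved by less than 1 SE, and by the same rule so did 1282 of 1342 with 1 library left out. For the contrasts between injuries or drivers these values cover the members that passed and Hmox1, Mt1 and Mt2, for those between sexes the members that passed, and other members are not included there. Among the values covered, changes of sign are given here, small ones included, and the count of all genes past the threshold, which moved as well, stands beside each count of members. With no filter on low counts changes of sign were, on the log2 scale, in iAKI with Atp6b1v1Cre Keap1 0.010, in Atp6b1v1Cre against total kidney Hmox1 -0.017. With a limit of 1 on the absolute log2 fold change the members past the threshold numbered 0 in iAKI with Hoxb7Cre (2 as reported, all genes 488 against 1298), 3 in vAKI minus iAKI with Hoxb7Cre (6, all genes 3112 against 7049), 2 in vAKI minus iAKI with Atp6b1v1Cre (5, all genes 2446 against 6194), 2 in Hoxb7Cre against total kidney (9, all genes 6874 against 14113) and 1 in Atp6b1v1Cre against total kidney (8, all genes 5866 against 13511). With both sexes in 1 fit the members past the threshold numbered 0 in iAKI with Hoxb7Cre (2, all genes 625 against 1298), 4 in vAKI with Hoxb7Cre (7, all genes 2704 against 7521), 5 in vAKI with Atp6b1v1Cre (3, all genes 6409 against 3086) and 0 in the driver difference in vAKI (3, all genes 75 against 890). There the sign changed, on the log2 scale, in iAKI with Hoxb7Cre Mt1 -0.77 and Mt2 -0.35, in vAKI with Hoxb7Cre Gclm 0.15, in iAKI with Atp6b1v1Cre Nfe2l2 -0.057 and Keap1 0.078, in vAKI with Atp6b1v1Cre Nqo1 -0.012, in vAKI minus iAKI with Atp6b1v1Cre Mt2 -0.070, in the driver difference in iAKI Mt2 1.08. In females only the members past the threshold numbered 0 in iAKI with Hoxb7Cre (2, all genes 665 against 1298), 0 in vAKI with Hoxb7Cre (7, all genes 23 against 7521), 0 in iAKI with Atp6b1v1Cre (1, all genes 563 against 1803), 2 in vAKI minus iAKI with Hoxb7Cre (6, all genes 800 against 7049), 0 in the driver difference in vAKI (3, all genes 0 against 890) and 5 in Atp6b1v1Cre against total kidney (8, all genes 10447 against 13511). Changes of sign there were, on the log2 scale, in iAKI with Hoxb7Cre Nfe2l2 -0.12, Keap1 0.031, Nqo1 -0.11, Gclc -0.39, Txnrd1 -0.17, Srxn1 -0.46, Mt1 -1.57 and Mt2 -1.91, in vAKI with Hoxb7Cre Keap1 0.13 and Gclm 0.30, in iAKI with Atp6b1v1Cre Nfe2l2 -0.37, Keap1 0.16, Hmox1 -2.97 and Gclc -0.051, in vAKI with Atp6b1v1Cre Nqo1 -0.16, in vAKI minus iAKI with Hoxb7Cre Nfe2l2 0.022, in vAKI minus iAKI with Atp6b1v1Cre Hmox1 1.61, Mt1 0.068 and Mt2 -0.12, in the driver difference in iAKI Hmox1 -0.98 and Mt2 2.64, in the driver difference in vAKI Txnrd1 0.12, Srxn1 0.38, Mt1 0.13 and Mt2 0.32. With library series as a covariate the members past the threshold numbered 4 in iAKI with Hoxb7Cre (2, all genes 3078 against 1298), 1 in the driver difference in iAKI (0, all genes 3123 against 1649), 5 in the driver difference in vAKI (3, all genes 2639 against 890) and 1 in Atp6b1v1Cre against Hoxb7Cre controls (0, all genes 2522 against 2103). There the sign changed, on the log2 scale, in vAKI with Atp6b1v1Cre Nqo1 -0.014, in vAKI minus iAKI with Atp6b1v1Cre Mt2 -0.12, in the driver difference in iAKI Mt1 -0.039. With males only the members past the threshold numbered 1 in Atp6b1v1Cre against Hoxb7Cre controls (0, all genes 2214 against 2103). Changes of sign there were, on the log2 scale, in Atp6b1v1Cre against total kidney Hmox1 -0.31. With the replicate block the members past the threshold numbered 0 in iAKI with Hoxb7Cre (2, all genes 878 against 1298), 0 in iAKI with Atp6b1v1Cre (1, all genes 0 against 1803) and 0 in the driver difference in vAKI (3, all genes 53 against 890). There the sign changed, on the log2 scale, in iAKI with Hoxb7Cre Nqo1 -0.22, Gclm -0.026 and Mt1 -0.47, in vAKI with Hoxb7Cre Nqo1 -0.011, in iAKI with Atp6b1v1Cre Hmox1 -0.93, Gclc -0.035 and Gclm -0.081, in vAKI with Atp6b1v1Cre Txnrd1 -0.24, in vAKI minus iAKI with Atp6b1v1Cre Mt1 0.027, in the driver difference in iAKI Mt2 0.67. Within series A the members past the threshold numbered 4 in iAKI with Hoxb7Cre (2, all genes 2318 against 1298), 1 in the driver difference in iAKI (0, all genes 3231 against 1649) and 7 in the driver difference in vAKI (3, all genes 3103 against 890). Changes of sign there were, on the log2 scale, in vAKI with Hoxb7Cre Gclm 0.11, in vAKI with Atp6b1v1Cre Nqo1 -0.52, Txnrd1 -0.35, Srxn1 -0.13 and Mt1 -0.19, in vAKI minus iAKI with Atp6b1v1Cre Mt2 -0.062, in the driver difference in iAKI Mt1 -0.44. With DESeq2 the members past the threshold numbered 1 in the driver difference in iAKI (0, all genes 2864 against 1649). With filterByExpr the members past the threshold numbered 1 in the driver difference in iAKI (0, all genes 2148 against 1649). With driver, sex, age and series of the mouse as 1 covariate changes of sign were, on the log2 scale, in Hoxb7Cre against total kidney Hmox1 0.019, in Atp6b1v1Cre against total kidney Hmox1 -0.0082. In females without vAKI replicate 5 of Atp6b1v1Cre the members past the threshold numbered 1 in vAKI with Atp6b1v1Cre (3, all genes 2554 against 3086). Changes of sign there were, on the log2 scale, in vAKI with Atp6b1v1Cre Nqo1 -0.40. Replicate numbers did not pair the libraries, since deviations of same-numbered libraries from their group means correlated at -0.10 with Hoxb7Cre and -0.12 with Atp6b1v1Cre on average (other libraries 0.018 and 0.0059). The members past the threshold were also counted with each library left out in turn, with the range for all genes in brackets. With Hoxb7Cre they numbered 0 to 3 in iAKI (645 to 1536) and 4 to 8 in vAKI (6082 to 7805). With Atp6b1v1Cre they stayed at 1 in iAKI (410 to 2086) and numbered 2 to 4 in vAKI (1640 to 4558). In vAKI minus iAKI they numbered 3 to 6 with Hoxb7Cre (5406 to 7364) and 4 to 5 with Atp6b1v1Cre (4178 to 6603). In the driver difference they numbered 0 to 1 in iAKI (599 to 2435) and 0 to 5 in vAKI (411 to 1033). The log2 differences that changed sign in this way were Mt1 in iAKI with Hoxb7Cre at -0.36 to 0.52, Gclm in vAKI with Hoxb7Cre at -0.43 to 0.070, Keap1 in iAKI with Atp6b1v1Cre at -0.030 to 0.031, Nqo1 in vAKI with Atp6b1v1Cre at -0.16 to 0.29, Txnrd1 in vAKI with Atp6b1v1Cre at -0.11 to 0.15, Mt1 in vAKI minus iAKI with Atp6b1v1Cre at -0.45 to 0.11, Mt2 in vAKI minus iAKI with Atp6b1v1Cre at -0.35 to 0.75, Mt1 in the driver difference in iAKI at -0.032 to 0.85 and Mt2 in the driver difference in iAKI at -0.90 to 0.46. The cause was not tested for any of these changes, and fits of females only, of males only and within series A hold fewer libraries.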
